A study of Homo sapiens with 8 samples.

Results

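The cluster of miR-224 and miR-452 was examined in 4 human tumor-derived cell lines by small RNA-seq. The cluster comprises 2 hairpins inside the GABRE gene, and its 4 members are the mature miRNAs hsa-miR-224-5p, hsa-miR-224-3p, hsa-miR-452-5p and hsa-miR-452-3p, written without the species prefix from here on. Members were taken by name, out of 2588 mature miRNA names in all, and each of the 4 had 1 entry and passed the filter on low counts. The cluster itself was chosen by measured values, since the levels of its members in these same lines were known when it was picked. Levels of the members across lines are therefore given as a description, without a test. The lines were ES-2 (from ovarian cancer), MV-3 (from melanoma), Huh-7 (from hepatocellular carcinoma) and A-549 (from lung adenocarcinoma). All were parental and untreated, grew in the same serum-containing medium and were harvested 48 h after seeding. Each line contributed 2 replicate libraries, which the study calls biological replicates. A line stands for the tumor of 1 person, so a difference between lines is not a difference between tumor types. In RNA from bulk cultures, fewer expressing cells and less RNA per cell cannot be told apart.

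GABRE encodes the epsilon subunit of the GABA-A receptor, a ligand-gated chloride channel. MiRNAs are cut from hairpin precursors, and 1 strand of the resulting duplex usually enters an Argonaute protein and guides it to mRNAs that pair with its seed, while the other strand is mostly degraded. The strand from the 5′ side of the hairpin is called 5p and that from the 3′ side 3p. MiR-224 is best known from hepatocellular carcinoma, where it is frequently reported as elevated and as a regulator of proliferation and apoptosis. MiR-452 lies beside it and is often reported with it. Both hairpins are on the minus strand of chromosome X in GRCh38. The hairpin of miR-452 lies at 151959628 to 151959712 and that of miR-224 at 151958578 to 151958658, with 969 bases between them. Both are within intron 6 of the principal GABRE transcript, which has 9 exons. In GENCODE, exons of other GABRE transcripts overlap the hairpins as well, 2 for miR-224 and 1 for miR-452.

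The mature sequences from RefSeq (GRCh38.p14) are shown with the seed, bases 2 to 8 counted from the 5′ end, in capitals, because the seed decides which mRNAs a strand can pair with.
miR-224-5p: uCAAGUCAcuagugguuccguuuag
miR-224-3p: aAAAUGGUgcccuagugacuaca
miR-452-5p: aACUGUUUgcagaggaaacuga
miR-452-3p: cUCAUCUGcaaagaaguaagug
The 4 seeds differ from each other, so the cluster carries 4 distinct seeds. The counts do not resolve where a read starts, so the seed in use in these cells was not measured. Reads were counted over miRBase 21, whose mature ends may differ from those of RefSeq, and a shifted 5′ end would change the seed shown and the search for seed relatives.

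The depth of a library, as reads assigned to miRNAs, ran from 1173902 in MV-3 replicate 1 to 2670030 in A-549 replicate 1. Values are given on a pair of scales. Normalised CPM is the deposited value, counts per 1000000 reads of a library size multiplied by its TMM factor (trimmed mean of M values), which offsets differences in composition. Library CPM divides the recovered reads by the miRNA reads of the library alone. Labels were compared with lists of miRNAs known from hepatocytes, melanocytes, epithelia and blood. In normalised CPM, the 4 hepatocyte miRNAs together reached 94976 to 98543 in Huh-7, 7561 to 7826 in A-549 and at most 192 in ES-2 and MV-3. The 7 epithelial miRNAs reached 2273 to 2339 in Huh-7, 1606 to 1735 in A-549 and at most 64.6 in the other lines. Of 5 melanocyte miRNAs, 4 had no read in either MV-3 library and the list summed to 1.10 to 1.48, so these markers do not show a melanocyte profile in MV-3. The same list summed to 34.2 to 44.2 in Huh-7, 2.46 to 4.91 in A-549 and at most 2.57 in ES-2. The 6 blood miRNAs ranged from 114 in MV-3 to 789 in Huh-7.

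MiR-224-5p, the main product of the cluster, was most abundant in A-549, intermediate in ES-2 and Huh-7, and near the limit of detection in MV-3. In A-549 it reached 9503 and 10431 normalised CPM in replicates 1 and 2, where it ranked 18 and 17 among 672 and 663 detected miRNAs. ES-2 had 1169 and 1348 normalised CPM, at ranks 61 and 58. Huh-7 had 1163 and 1095, at ranks 55 and 53. MV-3 had 2.96 and 6.04 normalised CPM, from 4 and 11 reads, with exact Poisson 95% intervals of 0.807 to 7.58 and 3.01 to 10.8 that cover counting error only. The A-549 libraries were above all others and the MV-3 libraries below all others. ES-2 and Huh-7 libraries were neighbours in this order, separated by less than the gap between the ES-2 replicates. The 1169 and 1163 of their first replicates agree within counting error, whereas the 1348 and 1095 of their second replicates do not. Mean normalised CPM was 9967 ± 656 in A-549 (SD, n = 2), 1258 ± 126 in ES-2, 1129 ± 47.6 in Huh-7 and 4.50 ± 2.17 in MV-3. A-549 exceeded MV-3 2216-fold, ES-2 7.92-fold and Huh-7 8.83-fold. ES-2 exceeded MV-3 279.7-fold and Huh-7 exceeded it 251-fold. The folds over MV-3 rest on 15 reads, and that of A-549 was 1651 without MV-3 replicate 1 and 3366 without replicate 2, those of ES-2 208 and 425, and those of Huh-7 187 and 381. On library CPM, A-549 exceeded MV-3 1139-fold, ES-2 5.55-fold and Huh-7 3.179-fold, and Huh-7 exceeded ES-2 1.75-fold.

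MiR-452-5p, the main product of the second hairpin, showed the same extremes but not the same middle. A-549 had 807 and 905 normalised CPM, Huh-7 had 225 and 249.7, ES-2 had 137 and 155, and MV-3 had no read in either library. A count of 0 allows up to 2.22 and 1.65 normalised CPM in the MV-3 libraries, taken as 3 reads. No libraries of different lines overlapped, and the order was A-549, Huh-7, ES-2, MV-3. Mean normalised CPM was 856 ± 69.0 in A-549 (SD, n = 2), 237 ± 17.7 in Huh-7 and 146 ± 13.0 in ES-2. A-549 was thus at least 443-fold, Huh-7 at least 123-fold and ES-2 at least 75.5-fold higher than MV-3, computed against 3 reads per MV-3 library. For Huh-7 minus ES-2, miR-452-5p had a log2 difference of 0.70 (SE 0.12), whereas miR-224-5p had one of -0.15 (SE 0.11). These log2 differences were taken on normalised CPM with 1 added.

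**Figure D1:**
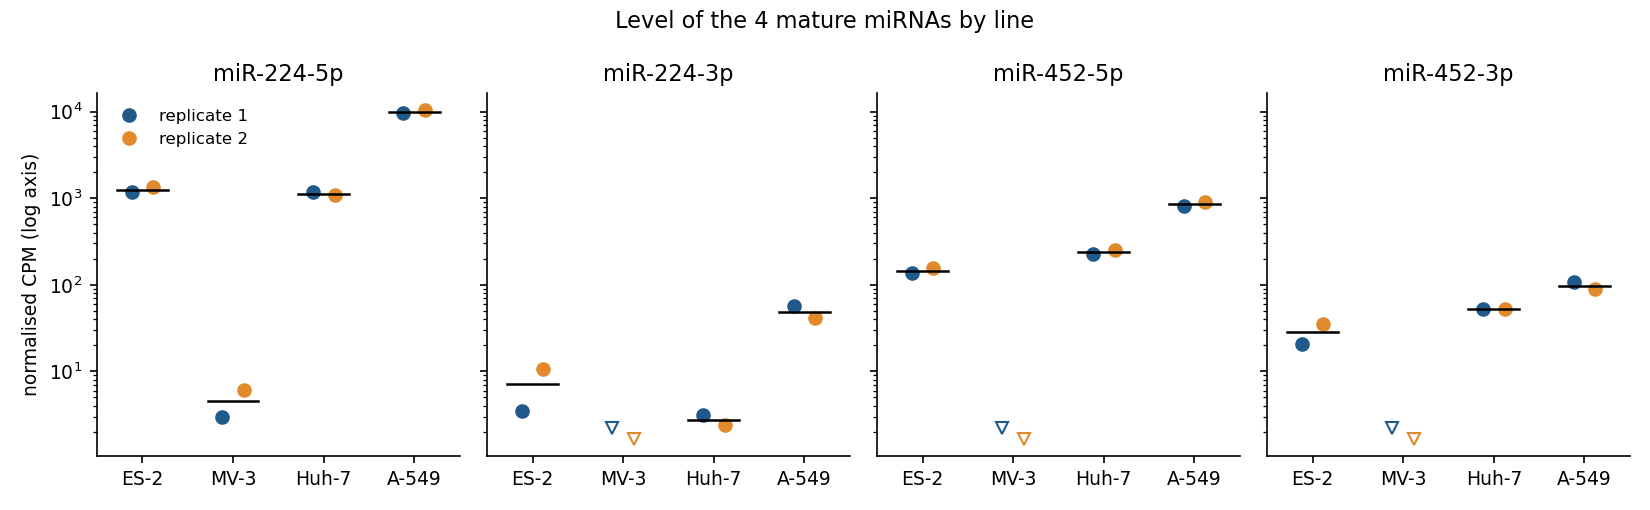
Normalised CPM (log axis) of the 4 mature miRNAs in each library of the 4 lines. Points are libraries, horizontal bars are means of 2 libraries, and open triangles mark libraries without a read at the level of 3 reads. Each miRNA is highest in A-549, and MV-3 has reads of miR-224-5p only.

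The minor strands were lower than their partners in each line with reads. MiR-452-3p had 108 and 88.3 normalised CPM in A-549, 52.7 and 52.6 in Huh-7, and 20.8 and 35.4 in ES-2. MiR-224-3p had 57.2 and 40.9 in A-549, 3.47 and 10.8 in ES-2, and 3.10 and 2.39 in Huh-7. MV-3 had no read of either. MiR-224-3p thus rested on 5 and 21 reads in ES-2 and 11 and 7 in Huh-7, and the library CPM of these lines overlapped. The strands of the hairpins ranked in opposite ways, since miR-224-5p exceeded miR-452-5p in each line with reads of both, whereas miR-452-3p exceeded miR-224-3p there. A ratio between miRNAs here is one of reads, and the efficiency with which each sequence was ligated and amplified was not measured.

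Summed over the 4 members, the cluster took 0.637% and 0.680% of miRNA reads in A-549, 0.236% and 0.239% in Huh-7, 0.115% and 0.131% in ES-2, and 0.000341% and 0.000710% in MV-3. The share of A-549 replicate 1 had an exact (Clopper-Pearson) 95% interval of 0.628% to 0.647%, and that of ES-2 replicate 1 one of 0.110% to 0.120%. By this share, which uses no composition factor, Huh-7 stood above ES-2. By normalised CPM the lines were level, with sums of 1443 and 1399.9 in Huh-7 around which the 1330.1 and 1549 of ES-2 spread. The log2 difference of the sum between Huh-7 and ES-2 was -0.01 (SE 0.11) on normalised CPM and 0.95 (SE 0.10) on library CPM, while dropping the TMM factors shifted the median of all tested miRNAs by 0.87 in this pair. The order of Huh-7 and ES-2 depended on the scaling for miR-224-5p and for the sum, but not for miR-452-5p and miR-452-3p, which were higher in Huh-7 on both scales.

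**Figure D2:**
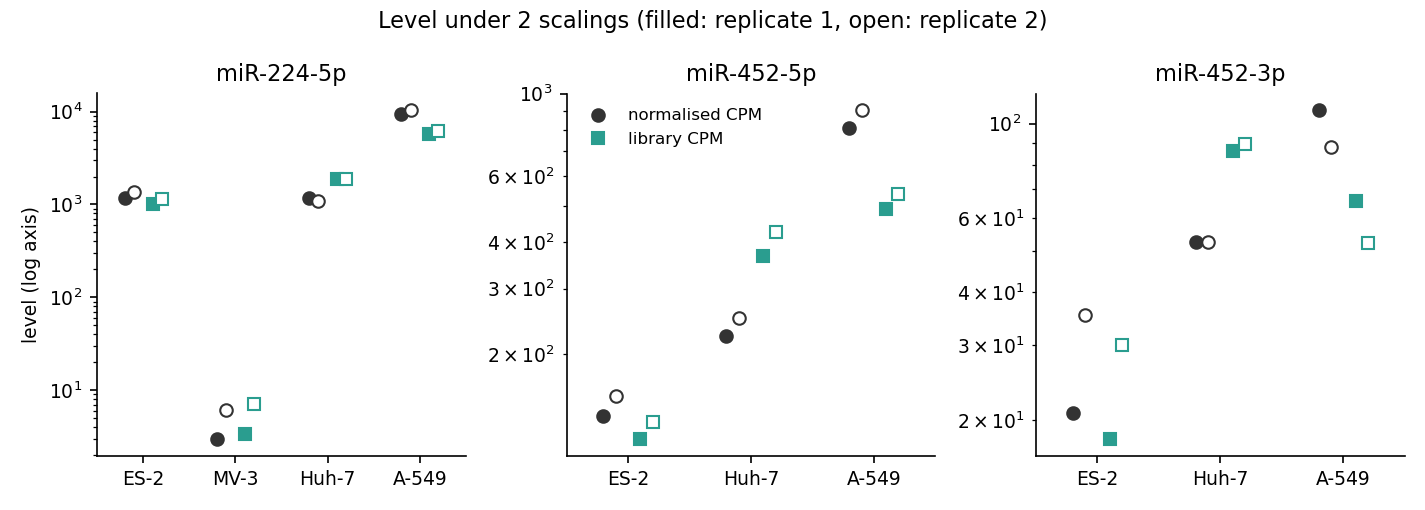
Level (log axis) of miR-224-5p, miR-452-5p and miR-452-3p in libraries with a read, as normalised CPM (circles) and library CPM (squares), with replicate 1 filled and replicate 2 open. For miR-452-3p, A-549 stands above Huh-7 on normalised CPM and below it on library CPM.

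A-549 was the highest line for the sum on both scales, by 7.72-fold over Huh-7 on normalised CPM and 2.78-fold on library CPM. For miR-452-5p this difference narrowed from 3.61-fold to 1.30-fold. For miR-452-3p it changed direction, with 98.0 ± 13.7 normalised CPM in A-549 against 52.6 ± 0.0416 in Huh-7 (SD, n = 2), but 59.0 ± 9.29 library CPM against 87.8 ± 2.54. MV-3 was the lowest line for every member on both scales. For miR-224-3p this is weakly resolved, with 0 reads in each MV-3 library against 11 and 7 in Huh-7. The bound there was only 1.42-fold on normalised CPM, computed against 3 reads per MV-3 library.

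Ratios within a library do not depend on such scaling, and they differed between lines. MiR-224 took 91.3% of the reads of the cluster in both A-549 libraries. It took 88.2% and 87.7% in ES-2, and 80.8% and 78.4% in Huh-7. The exact 95% intervals were 90.8% to 91.7% for A-549 replicate 1, 86.6% to 89.6% for ES-2 replicate 1 and 79.7% to 81.9% for Huh-7 replicate 1. The lines did not overlap in this share, and they lay further apart than the replicates of any line, with means of 91.3% ± 0.0511 in A-549 (SD, n = 2), 87.9% ± 0.321 in ES-2 and 79.6% ± 1.68 in Huh-7. In MV-3 all 15 reads of the cluster, 4 and 11, were miR-224-5p, for which the intervals reach down to 39.8% and 71.5%. Expressed as strands, 1 read of miR-452-5p was accompanied by 11.8 and 11.5 reads of miR-224-5p in A-549, by 8.55 and 8.69 in ES-2 and by 5.17 and 4.39 in Huh-7.

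The hairpins also differed in how strictly 1 strand prevailed. The 5p strand took 99.2% to 99.8% of miR-224 reads in the 6 libraries of ES-2, Huh-7 and A-549. For miR-452 it took 86.8% and 81.4% in ES-2, 81.0% and 82.6% in Huh-7, and 88.2% and 91.1% in A-549. The mean 5p share of miR-452 was 89.7% ± 2.04 in A-549 (SD, n = 2), 84.1% ± 3.81 in ES-2 and 81.8% ± 1.12 in Huh-7. A-549 libraries were above those of both other lines in this share, while ES-2 and Huh-7 overlapped, and ES-2 replicates differed by more than ES-2 and Huh-7 did on average.

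**Figure D3:**
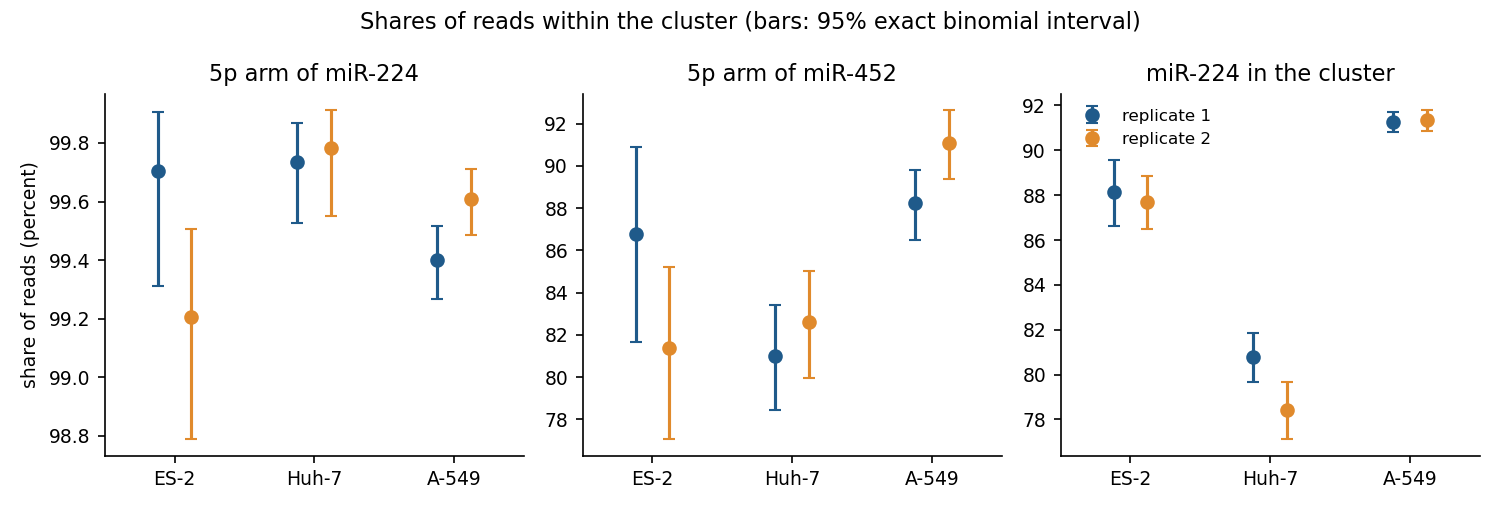
Share of reads (percent) of the 5p strand in miR-224, of the 5p strand in miR-452, and of miR-224 in the cluster, for the 6 libraries with at least 20 reads per hairpin. Bars are exact binomial 95% intervals. The share of miR-224 in the cluster separates the lines, from 78.4% in Huh-7 to 91.3% in A-549, and the vertical axes do not start at 0.

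These shares were set beside those of other hairpins of the table, over the same 6 libraries and with the same minimum of 20 reads. Among 103 other hairpins with both strands counted, the median share of the major strand was 97.2%. With 99.5% of reads on its major strand, miR-224 exceeded 71.8% of them, and miR-452, with 86.0%, exceeded 20.4%. The mean 5p share of miR-452 ranged over 7.86 points between the lines, and its largest gap between replicates of a line was 5.38 points. MiR-224 ranged over 0.303 points. Within 10 kb on the same strand, 16 other pairs of neighbouring hairpins could be compared. The log2 ratio of miR-224 to miR-452 reads ranged over 1.43 between the lines, and the largest gap between its replicates was 0.21. The other pairs had a median range of 0.67, and 13 of the 16 had a smaller one. These hairpins share libraries and some share a transcript, so the values describe the table and were not tested.

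**Figure D4:**
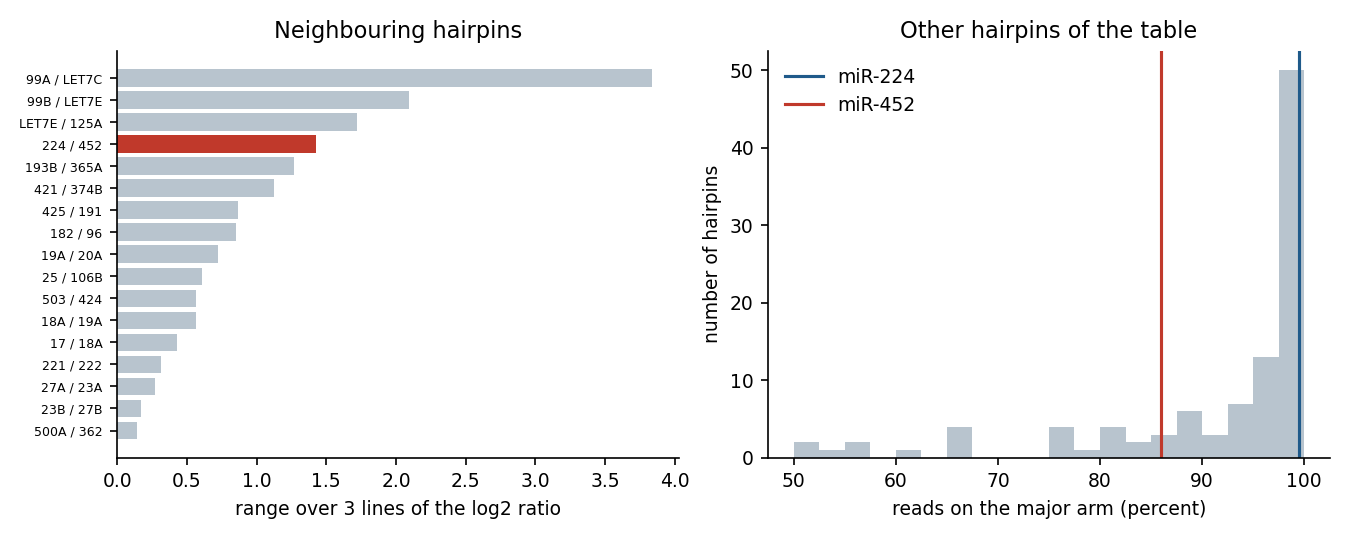
Left, range over ES-2, Huh-7 and A-549 of the log2 ratio of reads between neighbouring hairpins (bars, 1 per pair, miR-224 and miR-452 in red). Right, number of hairpins by percent of reads on the major strand, with lines at 99.5% for miR-224 and 86.0% for miR-452.

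MiRNAs were also counted by the size of their deficit in MV-3. The cluster was picked with this deficit known and the criterion was set after the levels had been seen, so the counts describe the table and say nothing of how particular the cluster is. Levels in MV-3 below 3 reads per library were set to 3 reads. A miRNA near this floor in another line could not show a large deficit. Of 1327 names with a read, 1 was at least 100-fold lower in MV-3 than in each of the other lines, and this was miR-224-5p. At least 10-fold lower were 5, of which 3 belong to the cluster, miR-224-5p, miR-452-5p and miR-452-3p. The others were miR-335-3p, which lies in an intron of the imprinted MEST gene, and miR-196b-5p from the HOXA cluster.

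The miRNAs whose levels most resembled those of the members were sought among 252 others with at least 100 library CPM in their highest line. Over the 8 libraries, the 5 with the highest Pearson's r were the same for miR-224-5p and miR-452-5p. They were miR-181a-5p, miR-196b-5p, miR-335-3p, miR-582-5p and miR-582-3p. With miR-224-5p, r on log2 normalised CPM was 0.96 for miR-181a-5p and 0.94 for miR-196b-5p, with Spearman's rho of 0.81 and 0.60. On library CPM these r were 0.73 and 0.89, and 4 of the 5 stayed among the first 5 for either member. With miR-452-5p, r was 0.97 for miR-196b-5p and 0.96 for miR-335-3p, with rho of 0.90 and 0.97. Among all 252 miRNAs the median r was 0.08 with either member. The 8 points come from 4 lines, with replicates of a line close together and MV-3 far below the rest. By Spearman's rho, 1 of the 5 was kept for miR-224-5p and 3 for miR-452-5p. In size the patterns differed, as miR-181a-5p was 2619 ± 125 normalised CPM in A-549 (SD, n = 2) and 685 ± 90.0 in MV-3, far less apart than miR-224-5p, while miR-335-3p was 481 ± 61.2 and 0.644 ± 0.135. Within the cluster, r was 0.99 between the 5p strands, with rho of 0.78, and 0.89 between the strands of miR-224.

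The other miRNAs of this stretch of chromosome X were examined next, to see whether they followed the cluster. Within 10 Mb of the miR-224 hairpin, the table held 37 other mature miRNAs, of which 18 had a read in any library and 3 passed the filter on low counts. These were miR-105-5p, miR-105-3p and miR-767-5p, which lie 433650 bases or more away in intron 1 of GABRA3. GABRA3 encodes the alpha-3 subunit of the same receptor family, and its miRNAs are known as cancer-germline transcripts that most adult tissues silence. Their mature 5p sequences, shown because the results on this stretch of the chromosome rest on them, have seeds of their own.
miR-105-5p: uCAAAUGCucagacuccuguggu
miR-767-5p: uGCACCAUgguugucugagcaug
The sequence of miR-105-5p is produced from 2 hairpins, on chromosome X at 152392219 to 152392299 and at 152394412 to 152394492, whose entries were summed. The hairpin of miR-767 lies at 152393421 to 152393529.

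MiR-105-5p and miR-767-5p were highest in MV-3, where the cluster was lowest, and at or near 0 in Huh-7 and A-549, where the cluster was abundant. MiR-767-5p had 138 and 205 reads in MV-3, 69 and 30 in ES-2, 0 and 0 in Huh-7, and 2 and 1 in A-549. MiR-105-5p had 100 and 194 reads in MV-3, 30 and 47 in ES-2, 0 and 0 in Huh-7, and 2 and 0 in A-549. ES-2 was the line with appreciable reads of both groups. On normalised CPM its mean cluster sum of 1439 was close to the 1421 of Huh-7, which had no read of miR-105-5p or miR-767-5p. The levels of the groups were thus not mirrored across all lines. Tests used limma across 528 miRNAs, with a call at an adjusted p below 0.01. With at most 2 reads in any Huh-7 or A-549 library, miR-105-5p and miR-767-5p passed the filter through MV-3 and ES-2. MiR-105-3p, with 4 and 0 reads in ES-2, passed through MV-3 alone. The direction of the 3 against Huh-7 and A-549 was thus largely set by the filter. So was that of miR-105-3p between MV-3 and ES-2. The counts, calls and folds below for Huh-7 or A-549 against MV-3 or ES-2 are a description and not a test of a difference. The shares of all miRNAs beside the counts are not a like comparison. Comparing Huh-7 with MV-3, all 3 tested GABRA3 miRNAs were lower in Huh-7, as were 20.1% of all tested miRNAs. In A-549 all 3 were lower relative to MV-3, as were 15.5% of all. Relative to ES-2, miR-105-5p and miR-767-5p were lower in Huh-7, as were 21.6% of all, and in A-549, as were 17.6%. With library size as the only scaling, the shares of all miRNAs called lower in A-549 were 30.1% against MV-3 and 26.5% against ES-2. Against MV-3, miR-767-5p was at least 115-fold lower in Huh-7 and miR-105-5p at least 96.6-fold lower. For MV-3 over A-549, the ratio of pooled rates was 103 for miR-767-5p, with an exact 95% counting interval of 34.8 to 499.9, and 132 for miR-105-5p, with 36.2 to 1094. The call of miR-767-5p in A-549 against ES-2 was lost without A-549 replicate 1 or replicate 2. The calls of miR-105-3p rested on 29 reads in MV-3 and were lost in 10 of 15 alternatives for Huh-7 and 9 of 14 for A-549, among them leaving out any library of MV-3, Huh-7 or A-549.

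Between MV-3 and ES-2, limma called 0 of the 3, where 25.8% of all miRNAs were called in either direction. All 3 had an unadjusted p below 0.05 in limma. MiR-105-3p had 17 and 12 reads in MV-3 against 4 and 0 in ES-2. Its direction was largely set by the filter, so its p is not a test of a difference. MiR-105-5p was 4.01-fold higher in MV-3 by mean normalised CPM, with a log2 fold change of 1.94 (SE 0.49, limma's adjusted p = 0.0225). Calls of miR-105-5p were made by edgeR, by DESeq2 and by limma with library size as the only scaling (adjusted p = 0.00524). Limma made no call of it with RLE factors, the other filters, the replicate block or a pseudocount of 0.1 (adjusted p up to 0.291). Leaving out a library gave log2 fold changes of 1.68 to 2.20. MiR-767-5p followed at 1.93 on the log2 scale (SE 0.56, limma's adjusted p = 0.0382). Without ES-2 replicate 1, limma called miR-767-5p (adjusted p = 0.0075) and miR-105-3p (adjusted p = 0.00575). Between A-549 and Huh-7, where 52.3% of all miRNAs were called, 0 of the 3 were called by limma, edgeR or DESeq2, and 0 had an unadjusted p below 0.05 in limma. With at most 2 reads in any library of these lines, the 3 were too near the floor to resolve a difference. The lack of calls therefore does not show that the lines were alike, and the 52.3% is not a like comparison. With a pseudocount of 0.1 in place of 1, limma called miR-767-5p (adjusted p = 0.00797). That call rested on 2 and 1 reads in A-549 against 0 and 0 in Huh-7, and the small pseudocount widens such a difference. The comparisons share libraries, since each line enters 3 of the 6 pairs.

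**Figure D5:**
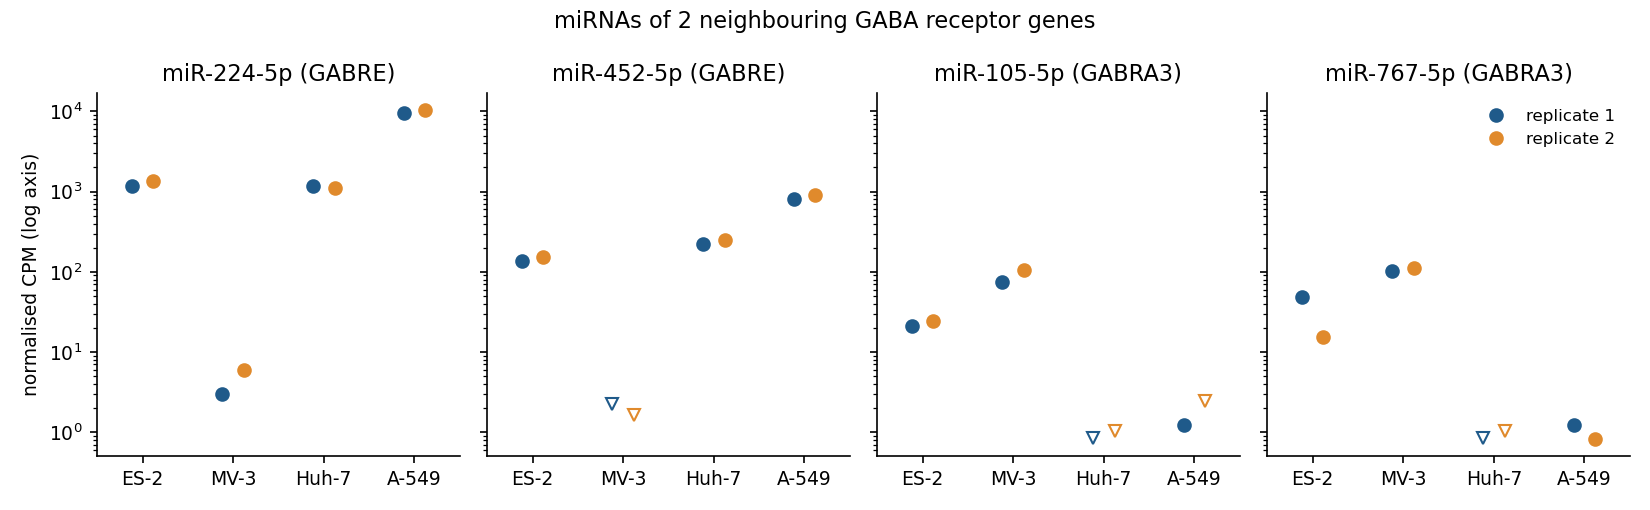
Normalised CPM (log axis) of miR-224-5p and miR-452-5p from GABRE and of miR-105-5p and miR-767-5p from GABRA3 in each library, with open triangles at 3 reads where a library had none. MiR-105-5p and miR-767-5p have at least 74.0 normalised CPM in both MV-3 libraries and at most 2 reads in any Huh-7 or A-549 library.

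Of the other 34 miRNAs within 10 Mb, none had more than 19 reads in a library. MiR-767-3p, the partner strand of miR-767-5p, had 19 and 7 reads in MV-3. It had 1 and 1 in ES-2 and 0 in each Huh-7 and A-549 library. The miR-506 to miR-514 group, known from testis and melanoma, had no read in either MV-3 library. Reads of its members were seen in Huh-7 alone, for example 7 and 6 reads of miR-508-3p. MiR-891a-5p, miR-888-5p and miR-892a, from a group known in the epididymis, had 13, 8 and 8 reads in MV-3 replicate 2, with 2 reads of miR-891a-5p in replicate 1. No test was made of these.

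Finally, miRNAs with the same seed as a member were sought in RefSeq. For miR-452-5p these were miR-4676-3p and miR-892c-3p.
miR-452-5p: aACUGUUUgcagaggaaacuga
miR-4676-3p: cACUGUUUcaccacuggcucuu
miR-892c-3p: cACUGUUUccuuucugagugga
MiR-4676-3p had at most 8 reads in any library, and miR-892c-3p, which is encoded on chromosome X as well, had none. With 0 reads of miR-452-5p, MV-3 had 0 and 4 reads of miR-4676-3p. The seed of miR-452-5p was thus represented by miR-452-5p itself in ES-2, Huh-7 and A-549, with 197 to 1311 reads per library, and by at most 4 reads in MV-3. No relative of the other 3 members was found in this table of sequences.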

How the data were processed

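Total RNA of the 8 libraries was isolated with TRIZOL and sequenced with the NEXTflex Small RNA kit v3. The authors trimmed reads with cutadapt 1.14, aligned them to GRCh38 with Bowtie2 2.3.2, counted them over miRBase 21 mature miRNAs with featureCounts 1.5.3, and normalised with edgeR 3.18.1. The treatment of multi-mapping reads and of random adapter bases is not given in the sources used here. The signal values deposited by the authors are TMM-normalised CPM, counts per 1000000 miRNA reads. Whole reads were recovered from their steps (100% of values whole, tolerance 0.001), and 167 names with several of the 2813 entries were summed.

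Levels of members were described as mean ± SD of 2 libraries, with no test. For other miRNAs, limma 3.58.1 in R 4.3.3 was fitted on log2(normalised CPM + 1), with 1 term per line, 4 residual degrees of freedom, a filter that kept 528 miRNAs and Benjamini-Hochberg adjustment. edgeR 4.0.16 and DESeq2 1.42.0 on recovered reads, other scalings, filters and pseudocounts, the replicate block and the omission of each library were alternatives. On simulated data for MV-3 against ES-2, limma recovered 64% of 200 miRNAs of 528 changed 4-fold, with 1 wrong call. The simulated lines had equal means apart from these changes, which were raised and lowered in equal number, and scaling was known. Errors of scaling and miRNAs absent from a line were thus not covered, and the error rate of the calls here was not measured. P-values measure the spread between these libraries only.

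Named miRNAs were the 4 members, other miRNAs within 10 Mb on chromosome X that were tested or had reads, the 5 most like miR-224-5p or miR-452-5p, and seed relatives. The members and lists were chosen with earlier results of these data known. Shares used hairpins with at least 20 reads per library. Locations are from GENCODE 44, sequences from RefSeq, and intervals from scipy 1.17.1.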

Additional observations from a re-analysis of the deposited data

How the results depend on the processing

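For the sum of the cluster, the log2 difference Huh-7 minus ES-2 of -0.01 changed direction with library size only (0.95), with miR-452-5p alone (0.70) and miR-452-3p alone (0.93), and on leaving out a library (-0.12 to 0.10, positive without ES-2 replicate 2 or Huh-7 replicate 2). It was -0.14 with RLE factors, -0.15 for miR-224-5p alone and -0.96 for miR-224-3p alone. With library size only, A-549 minus ES-2 was 2.42, Huh-7 minus MV-3 8.63, A-549 minus MV-3 10.11 and A-549 minus Huh-7 1.47, the last being 3.176 with RLE factors. Taking members alone, A-549 minus Huh-7 was 3.14, 3.73, 1.85 and 0.88 for miR-224-5p, miR-224-3p, miR-452-5p and miR-452-3p. For the last 3 members, MV-3 minus ES-2 was -2.86, -7.20 and -4.82, A-549 minus ES-2 2.77, 2.54 and 1.81, and A-549 minus MV-3 5.63, 9.74 and 6.62. Huh-7 minus MV-3 was 1.90 for miR-224-3p and 5.74 for miR-452-3p. From 5p arms alone, the share of miR-224 was 89.6% in ES-2, 82.6% in Huh-7 and 92.1% in A-549, in the same order.

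Counts of called miRNAs stayed within 1.5 times. Splits into higher and lower moved with library size only, from 61 and 75 to 85 and 58 for MV-3 minus ES-2, 146 and 114 to 227 and 87 for Huh-7 minus ES-2, 125 and 93 to 112 and 140 for A-549 minus ES-2, 127 and 82 to 82 and 159 for A-549 minus MV-3, and 151 and 125 to 111 and 244 for A-549 minus Huh-7. With the replicate block, 129 miRNAs were called in MV-3 minus ES-2 against 136 without it, and no call of a GABRA3 miRNA changed. Deviations of same-numbered libraries correlated at -0.05 to 0.23, so the numbers were not taken to pair samples. Where leaving out a library left a line with 1, that library was assumed to vary like the other lines. Depth limits MV-3, where 15 reads carry the cluster.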
